A study of Rattus norvegicus with 9 samples.

Results

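The 6 table entries named KEF51_p03, KEF51_p04, KEF51_p05, KEF51_p06, KEF51_p07 and KEF51_p13 were followed across 9 RNA-seq libraries of neonatal rat cardiac fibroblasts (CFs). They are 6 of 13 entries with a KEF51 name and of 22512 entries listed in all. The files pair none of these names with a gene symbol. Read in the usual order of vertebrate mitochondrial genes, KEF51_p03, KEF51_p04 and KEF51_p07 would be COX1, COX2 and COX3, KEF51_p05 and KEF51_p06 would be ATP8 and ATP6, and KEF51_p13 would be CYTB. This identity is an inference from the numbering alone. By the same reading the other 7 entries would be the ND subunits. The 6 entries were taken by name and were chosen by their FPKM in the vericiguat libraries, which was known, so their levels in those libraries are described here with no test. All 6 passed the filter on low values, which asked for FPKM of 1 or more in 3 or more libraries, as did 10908 entries in all.

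Mitochondria keep a small circular genome of their own. It is transcribed into long precursors that are cut into messages, which encode subunits of the respiratory chain or of ATP synthase. COX1 holds the site where cytochrome c oxidase (complex IV) reduces oxygen, COX2 takes up electrons from cytochrome c, and COX3 is the remaining core subunit of that complex. ATP6 forms the proton path of ATP synthase (complex V) and ATP8 is a small subunit of its membrane part. CYTB is the catalytic core of complex III, which passes electrons on to cytochrome c. The remaining subunits of these complexes are encoded in the nucleus. In heart cells, which depend on oxidative phosphorylation, mitochondrial messages are known to be abundant.

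The blank group was 3 libraries of untreated CFs, the AngII group was 3 libraries of CFs given angiotensin II at 0.1 µM for 72 h, and the vericiguat + AngII treatment group was 3 libraries of CFs given vericiguat at 1.0 µM for 24 h before the same AngII exposure. Angiotensin II is a peptide hormone used to activate fibroblasts, and vericiguat stimulates soluble guanylate cyclase. All groups were passaged primary cultures from newborn rats, and total RNA was used. Nothing in the labels says that the libraries of a group came from separate cultures, so p-values measure only the spread between these libraries, which may be technical. The methods text describes the reverse order of the agents for a migration assay and gives no times for the sequenced cultures.

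Expression was deposited as FPKM, a fragment number set relative to transcript length and to the library's mapped total. How deeply each library was read is unknown. The 13 KEF51 entries made up 97.8% ± 0.169 of all FPKM in blank, 97.0% ± 0.439 in AngII and 49.6% ± 3.75 in treated libraries (SD, n = 3 each). FPKM values of a library share a limited total, so a lower FPKM of an entry can go with a higher FPKM of other entries, and these cannot be told apart within a library. The sum itself was not equal between groups. Over all entries its mean was 1565469 in blank, 1754478 in AngII and 855157 in treated libraries. Over the 13 KEF51 entries it was 1530483, 1702046 and 425531.5 in the same order. From 260 to 1542 entries had FPKM of at least 1 in the blank and AngII libraries, against 11280 to 11565 in the treated libraries. Of 14 fibroblast markers, COL1A2, DCN, LUM and FN1 were listed by symbol, with a summed FPKM of 1.70 to 24.7 in blank, 7.09 to 25.7 in AngII and 368 to 527 in treated libraries. Of 15 cardiomyocyte markers, 6 were listed (MYH6, MYH7, TTN, RYR2, PLN and NPPA), with summed FPKM of 6.80 to 9.06, 45.0 to 109 and 3812 to 6077 in the same order. In the treated libraries, labelled as CFs, the single markers of the 2 lists overlapped in level. Of the cardiomyocyte markers, MYH7 stood at FPKM of 2766 to 4346, PLN at 632 to 1150 and MYH6 at 227 to 482. TTN stood at 67.3 to 75.3 and RYR2 at 21.9 to 31.6. Of the fibroblast markers, DCN stood at 248 to 403, LUM at 92.3 to 96.5, COL1A2 at 13.1 to 16.2 and FN1 at 10.1 to 13.9. NPPA was listed at 0 in every blank library and at most at 0.449 elsewhere, and FN1 was listed at 0 in the second AngII library. The part of these markers in the levels below was not tested. In bulk RNA, fewer cells of a type and less RNA per cell cannot be told apart. The submitters' processing notes list OryCun2.0, which is a rabbit assembly, for samples labelled as rat. How far this bears on the level of each entry was not tested.

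Some libraries stood apart. The second blank library had the fewest entries with FPKM of at least 1, 260, and 3521 entries were at 0 in it alone within its group, against at most 1419 for any other library. Its median log2 distance from the mean of the other libraries of its group was 3.25, against at most 1.45 elsewhere. The third blank library lay between the other two blank libraries in 84.0% of the 7915 entries compared, and in 5 of the 6 entries described here. For the other 8 libraries that share ran from 6.32% to 40.1%. The third AngII library was below both other AngII libraries in KEF51_p03, KEF51_p04, KEF51_p05, KEF51_p06 and KEF51_p13, and above both in KEF51_p07. Over all entries the median log2 distance from the group was 0.903 for the first AngII library, 1.13 for the second and 0.907 for the third. None of the 6 entries was called between AngII and blank when any of these 3 libraries was left out.

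Among the entries read as complex IV subunits, KEF51_p03 and KEF51_p04 stayed within 2-fold of both control groups in the vericiguat + AngII treatment group, and KEF51_p07 was below every library of both. KEF51_p03, read as COX1, had FPKM of 21223, 34008 and 24818 in blank libraries, 36374, 38984 and 21035 after AngII, and 40234, 40184 and 50949 in treated libraries. All 3 treated libraries were above all 6 others. The mean of 43789 ± 6201 (SD, n = 3) was 1.36 times the AngII mean of 32131 ± 9698 and 1.64 times the blank mean of 26683 ± 6593.

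KEF51_p04, read as COX2, had FPKM of 30621, 63263 and 42847 in blank libraries, 64549, 62872 and 45299 after AngII, and 36401, 48321 and 52285 in treated libraries. The 3 groups overlapped. The treated mean of 45669 ± 8268 (SD, n = 3) was 0.793 times the AngII mean of 57573 ± 10663 and 1.00 times the blank mean of 45577 ± 16492.

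KEF51_p07, read as COX3, was the highest of the 6 entries in the blank and AngII groups. Its FPKM was 105934, 119546 and 111095 in blank libraries, 172333, 171412 and 196268 after AngII, and 21526, 47459 and 28929 in treated libraries. No range overlapped another: the AngII libraries were highest and the treated libraries lowest. The treated mean of 32638 ± 13358 (SD, n = 3) was 5.52-fold lower than the AngII mean of 180004 ± 14093 and 3.44-fold lower than the blank mean of 112192 ± 6872.

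**Figure D1:**
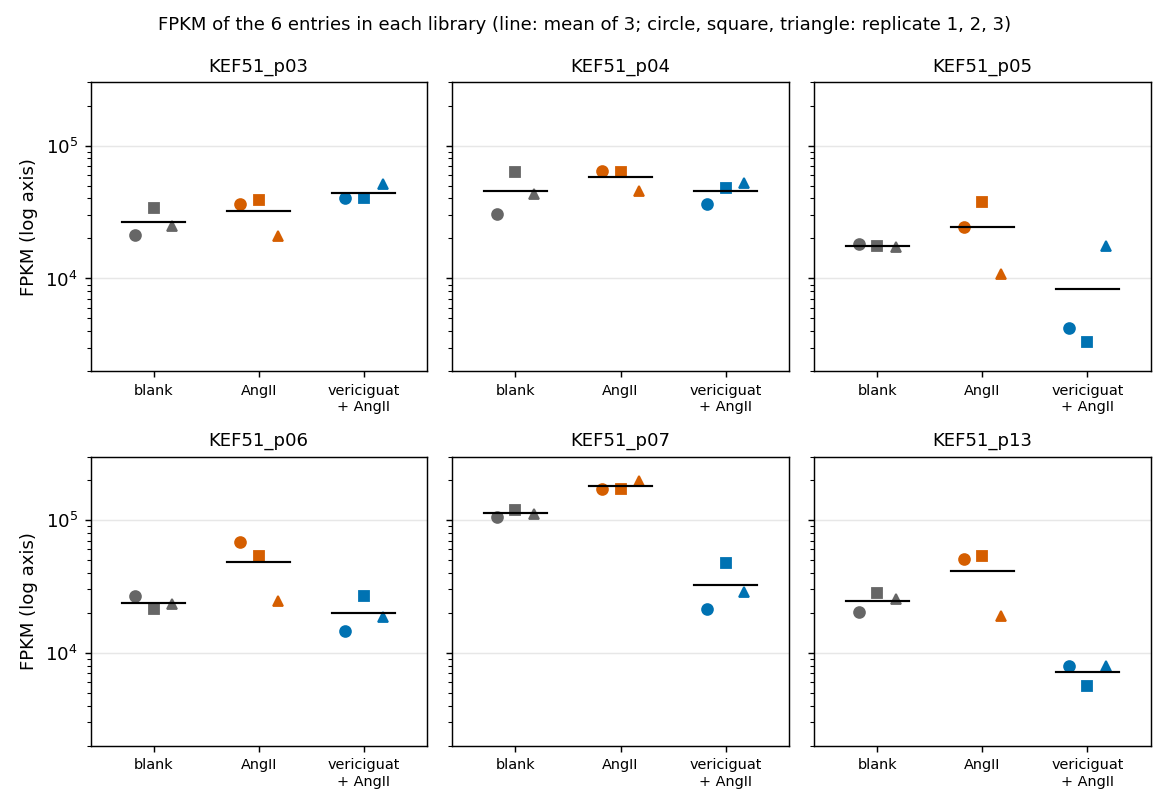
FPKM of the 6 KEF51 entries in each of the 9 libraries, by group, with a line at the group mean (n = 3). KEF51_p03 lies highest in the treated libraries, KEF51_p04 overlaps between all groups, and KEF51_p07 and KEF51_p13 lie lowest in the treated libraries.

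The pair read as ATP synthase subunits was lower on average in the vericiguat + AngII treatment group than in the AngII group, with overlapping libraries. KEF51_p05, read as ATP8, had FPKM of 18175, 17628 and 17277 in blank libraries, 24408, 37865 and 10825 after AngII, and 4220, 3308 and 17502 in treated libraries. The third treated library was close to the blank level, whereas the other two were below every control library. The treated mean of 8343 ± 7945 (SD, n = 3) was 2.92-fold lower than the AngII mean of 24366 ± 13520 and 2.12-fold lower than the blank mean of 17693 ± 453. The ratio to the AngII mean was 0.342 with all libraries and 0.154 without the third treated library, and the ratio to the blank mean was 0.472 and 0.213. The ratio to the blank mean was 0.588 without the first and 0.614 without the second treated library.

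KEF51_p06, read as ATP6, had FPKM of 26801, 21528 and 23444 in blank libraries, 67849, 53423 and 24447 after AngII, and 14635, 26913 and 18518 in treated libraries. The treated libraries overlapped both control groups. The treated mean of 20022 ± 6276 (SD, n = 3) was 2.43-fold lower than the AngII mean of 48573 ± 22104 and 0.837 times the blank mean of 23925 ± 2669. In vertebrate mitochondrial genomes the ATP8 and ATP6 reading frames overlap. The split of shared reads between KEF51_p05 and KEF51_p06 is therefore uncertain, since the counting rule for such reads is not given in the sources used here.

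KEF51_p13, read as CYTB, had the lowest mean of the 6 entries in the vericiguat + AngII treatment group, although KEF51_p05 was below it in the first and second treated libraries. Its FPKM was 20407, 28194 and 25481 in blank libraries, 50815, 53380 and 19101 after AngII, and 7955, 5659 and 8014 in treated libraries. Every treated library was below every control library. The treated mean of 7209 ± 1343 (SD, n = 3) was 5.70-fold lower than the AngII mean of 41099 ± 19093 and 3.43-fold lower than the blank mean of 24694 ± 3952.

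By the ratio of group means, 4 of the 6 entries (KEF51_p05, KEF51_p06, KEF51_p07 and KEF51_p13) were at or below 0.5 times the AngII level in the treated libraries, beside 0.138% of all tested entries. Without the first AngII library there were 3, with KEF51_p06 at 0.514 times. Against the blank group 3 of the 6 (KEF51_p05, KEF51_p07 and KEF51_p13) were at or below 0.5 times, beside 0.165%. The remaining 2 entries against AngII and 3 against blank were within 2-fold, beside 0.156% and 0.202% of all tested entries. Of the 6 entries, KEF51_p03 lay above the AngII libraries without overlap, as did 99.7% of all tested entries, and KEF51_p07 and KEF51_p13 lay below without overlap, as did 0.101%. Against the blank libraries the same entries lay above and below, beside 99.6% and 0.119%. The entries were chosen with these levels known, so nothing is read from these counts. These comparisons share the treated libraries. The median log2 difference of all tested entries was 2.76 against AngII and 2.83 against blank, on the log2(FPKM + 1) scale. Of the other 7 KEF51 entries, 6 were at or below 0.5 times the AngII level, with log2 ratios from -1.89 (KEF51_p12) to -4.36 (KEF51_p10). Only KEF51_p01 among them was within 2-fold, at -0.26. The log2 ratios of the 6 entries ran from 0.45 (KEF51_p03) to -2.51 (KEF51_p13).

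The size of every ratio moved with the scaling of the libraries. After each library was rescaled to the same sum (TPM), the treated mean was 2.83 times the AngII mean for KEF51_p03, 1.63 times for KEF51_p04, 0.706 times for KEF51_p05, 0.853 times for KEF51_p06, 0.364 times for KEF51_p07 and 0.371 times for KEF51_p13. On that scale only KEF51_p07 and KEF51_p13 stayed at or below 0.5 times the AngII level. Median-ratio scaling, which sets the typical entry equal between libraries, gave log2 ratios from -4.91 (KEF51_p03) to -7.88 (KEF51_p13), so all 6 were lower. It divides each library by a size factor, which was 0.0792 for the second blank library and 0.463 and 0.263 for the other blank libraries. The second blank library thus weighed most in the blank means on that scale. As a percent of the 13-entry sum, KEF51_p03, KEF51_p04, KEF51_p05 and KEF51_p06 were higher than in AngII, with log2 ratios of 2.48, 1.67, 0.45 and 0.73, and KEF51_p07 and KEF51_p13 were lower at -0.50 and -0.44. Against blank the shares gave log2 ratios of 2.59, 1.86, 0.73, 1.56, 0.038 and 0.12 from KEF51_p03 to KEF51_p13 in order of number, so none was lower, and KEF51_p06 went from -0.26 as FPKM to 0.59 as TPM. With KEF51_p10 left out of the sum, KEF51_p07 and KEF51_p13 were lower than blank, at -0.42 and -0.34. On each of these scales KEF51_p03 had the highest ratio to AngII, KEF51_p04 the next, and KEF51_p07 and KEF51_p13 the lowest. Each scale divides all entries of a library by a single number, so this order could hardly change and nothing is read from it.

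**Figure D2:**
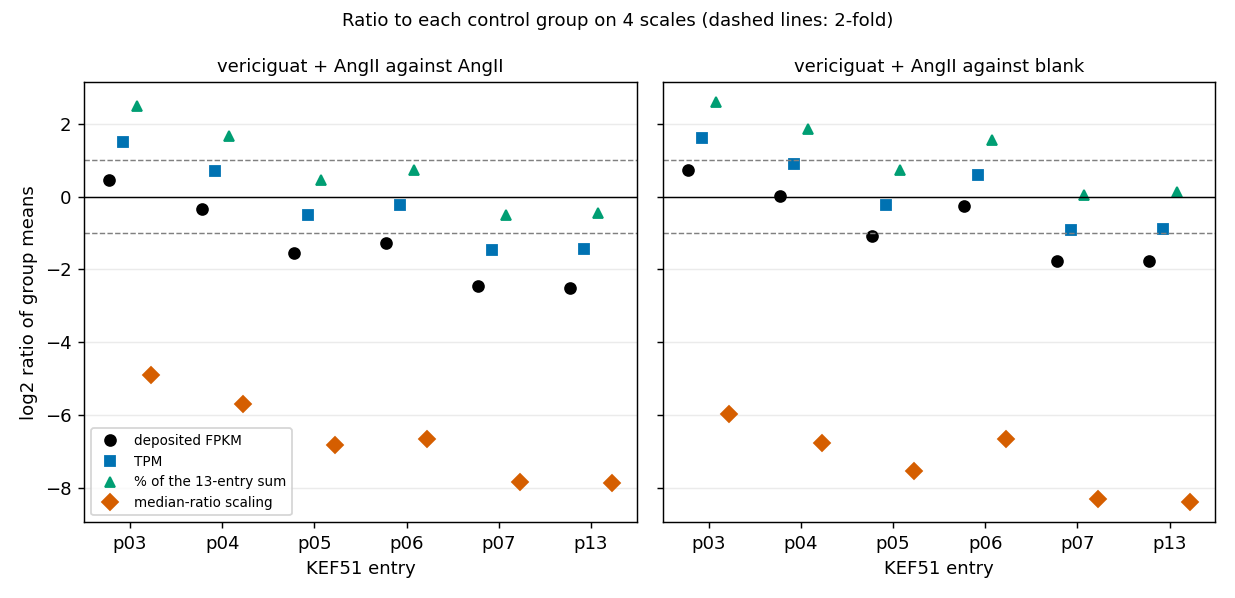
Log2 ratio of the vericiguat + AngII mean to the AngII mean (left) and to the blank mean (right) for each entry, on the deposited FPKM scale, as TPM, as percent of the 13-entry sum and after median-ratio scaling; dashed lines mark 2-fold. Against AngII the FPKM ratios run from 0.45 for KEF51_p03 to -2.51 for KEF51_p13. On all 4 scales KEF51_p03 and KEF51_p04 lie above the other 4 entries in the left panel, an order that rescaling whole libraries can hardly change.

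The AngII group was compared with the blank group to ask how the entries stood after angiotensin II alone. None of the 6 entries passed the test, limma on log2(FPKM + 1) called where the log2 difference reached 1 in size and the Benjamini-Hochberg adjusted p lay under 0.05, and 1.55% of all tested entries (169) did. Over all entries, 0 were called by limma without the third blank library (991 at an unadjusted p below 0.05), 308 without the second and 29 without the third AngII library. With limma fitted to the blank and AngII libraries alone, 0 of all tested entries were called (1663 at an unadjusted p below 0.05). The share of 1.55% thus rests on a spread shared with the treated libraries. In the fit of all 9 libraries, 2 of the 6 (KEF51_p06 and KEF51_p07) and 1567 of 10908 had an unadjusted p below 0.05 by limma. None passed by the exact permutation test, whose smallest p for 3 against 3 libraries is 0.1. The 6 differences were all positive on the FPKM scale, from 0.25 ± 0.265 (SE) for KEF51_p03 to 0.90 ± 0.356 for KEF51_p06, beside a median of 0.06 over all tested entries. Most tested entries lay below FPKM 1 in each blank and AngII library, which bears on that median and on the share of 1.55%. Among the 3124 entries with a mean FPKM of at least 5, 342 were called and the median was 0.25.

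KEF51_p07 was higher in all 3 AngII libraries than in all 3 blank libraries, by 0.68 ± 0.228 (SE) on the log2(FPKM + 1) scale, with an adjusted p of 0.183 by limma. The two-sided exact permutation p was 0.1. This was the only one of the 6 entries whose blank and AngII ranges did not overlap, beside 21.3% of all tested entries and 4 of the other 7 KEF51 entries. Without the third blank library the difference was 0.67, with an adjusted p of 0.490 by limma. Median-ratio scaling, with a size factor of 0.0792 for the second blank library, turned it to -0.05.

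KEF51_p06 had the largest difference of the 6, and the third AngII library lay inside the blank range. The adjusted p by limma was 0.268 and the two-sided exact permutation p was 0.2. Without the third AngII library the differences of KEF51_p06, KEF51_p13 and KEF51_p05 were 1.34, 1.09 and 0.78, and none was called. KEF51_p13 was higher in the first and second AngII libraries than in any blank library and lower in the third, with a difference of 0.61 ± 0.374 (SE) and an adjusted p of 0.529 by limma. The differences of KEF51_p04 (0.38 ± 0.261) and KEF51_p05 (0.28 ± 0.603) were likewise within the spread of their groups, with adjusted p of 0.593 and 0.939 by limma. KEF51_p03 had an adjusted p of 0.787 by limma.

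Within the 13 entries, the 6 together held 16.3% ± 1.10 of the summed FPKM in blank, 22.5% ± 1.82 in AngII and 36.9% ± 1.77 in treated libraries (SD, n = 3 each). This share leaves out the entries without a KEF51 name. As a share of all FPKM the 6 entries held 16.0% ± 1.08, 21.8% ± 1.83 and 18.3% ± 2.03. The share of the 13-entry sum was therefore highest in the treated libraries, while the mean share of all FPKM was highest in the AngII group. By library the share of all FPKM ran from 15.1% to 17.2% in blank, 19.7% to 22.8% in AngII and 16.0% to 19.9% in treated libraries. On that scale the treated libraries overlapped both control groups.

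KEF51_p03 made up 1.73% ± 0.330 of the 13-entry sum in blank, 1.87% ± 0.452 in AngII and 10.4% ± 1.61 in treated libraries (SD, n = 3). KEF51_p04 made up 2.94% ± 0.905, 3.36% ± 0.395 and 10.7% ± 0.718. KEF51_p06 made up 1.57% ± 0.260, 2.80% ± 1.14 and 4.65% ± 0.927. These 3 were the entries of the 6 whose treated shares did not overlap the AngII shares, and all were higher, beside 53.8% of the 13 entries. The same 3 did not overlap the blank shares, beside 69.2%. KEF51_p07 made up 7.33% ± 0.0465, 10.7% ± 1.69 and 7.52% ± 2.23, and KEF51_p13 made up 1.61% ± 0.177, 2.37% ± 0.990 and 1.74% ± 0.526. Both thus held a like part of the 13-entry sum in the blank and treated groups, with overlapping libraries. KEF51_p10 alone made up 30.4% of that sum in blank and 4.20% in treated libraries. With KEF51_p10 left out of the sum, the log2 ratios to blank were -0.42 for KEF51_p07 and -0.34 for KEF51_p13. KEF51_p05 made up 1.16% ± 0.0844, 1.40% ± 0.721 and 1.92% ± 1.70, and the third treated library alone stood at 3.86%.

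Between AngII and blank, only KEF51_p07 of the 6 had shares that did not overlap, beside 38.5% of the 13 entries. Its two-sided exact permutation p was 0.1, the smallest possible. The exact p of the other 5 entries ran from 0.2 to 0.9. Without the third AngII library 4 of the 6 entries had shares that did not overlap, and without the first or the second blank library 2 did.

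**Figure D3:**
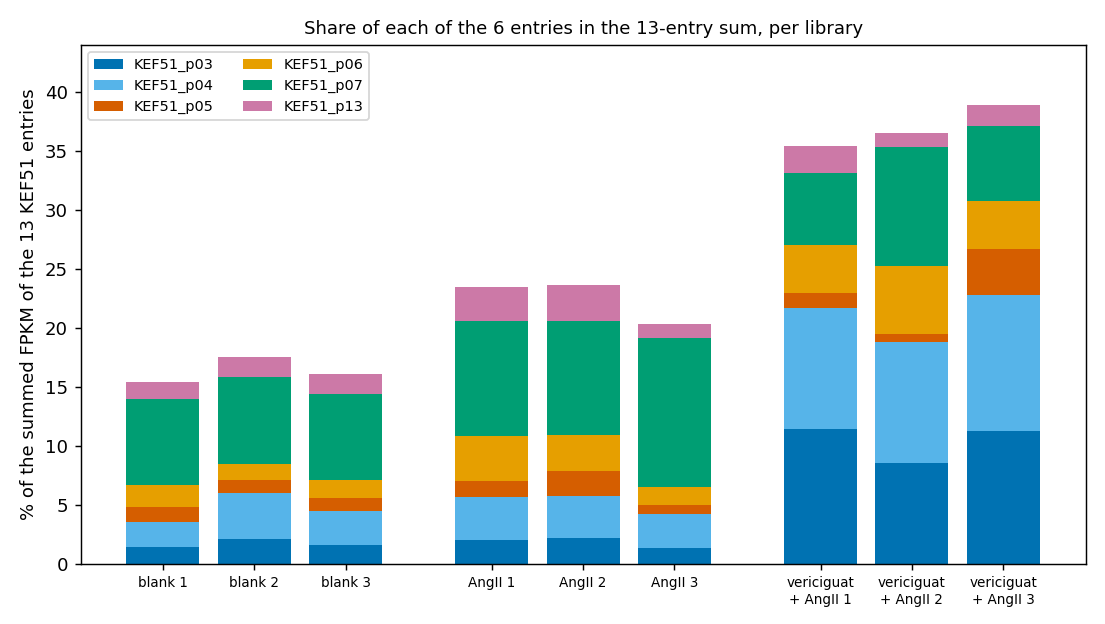
Percent of the summed FPKM of the 13 KEF51 entries held by each of the 6 entries, as a stacked bar for each of the 9 libraries, by group. KEF51_p03 stands at 1.73% in blank, 1.87% in AngII and 10.4% in treated libraries, and KEF51_p07 stands at 7.33%, 10.7% and 7.52%.

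Ratios between entries of the same library do not depend on how the library was scaled. The ratio of KEF51_p03 to KEF51_p07 was 0.200, 0.284 and 0.223 in blank, 0.211, 0.227 and 0.107 in AngII, and 1.87, 0.847 and 1.76 in the treated libraries. The treated libraries were all above the control libraries in this ratio between entries read as subunits of the same complex. The ratio of KEF51_p04 to KEF51_p07 was 0.289, 0.529 and 0.386 in blank, 0.375, 0.367 and 0.231 in AngII, and 1.69, 1.02 and 1.81 in the treated libraries, again without overlap. KEF51_p03 and KEF51_p04 stayed closer to each other, with a ratio of 0.464 to 0.693 over the 6 control libraries and 0.832 to 1.11 over the treated libraries. This ratio too was higher in every treated library than in every control library.

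The ratio of KEF51_p13 to KEF51_p03 was 0.962, 0.829 and 1.03 in blank, 1.40, 1.37 and 0.908 in AngII, and 0.198, 0.141 and 0.157 in the treated libraries. KEF51_p13 and KEF51_p03 thus had like FPKM in the control libraries and separated in every treated library. The ratio of KEF51_p05 to KEF51_p06 was 0.678, 0.819 and 0.737 in blank, 0.360, 0.709 and 0.443 in AngII, and 0.288, 0.123 and 0.945 in the treated libraries, which spread over both control groups. Over the 7 ratios compared between AngII and blank, the two-sided exact permutation p ran from 0.2 to 0.7 and the adjusted p from 0.583 to 0.7.

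**Figure D4:**
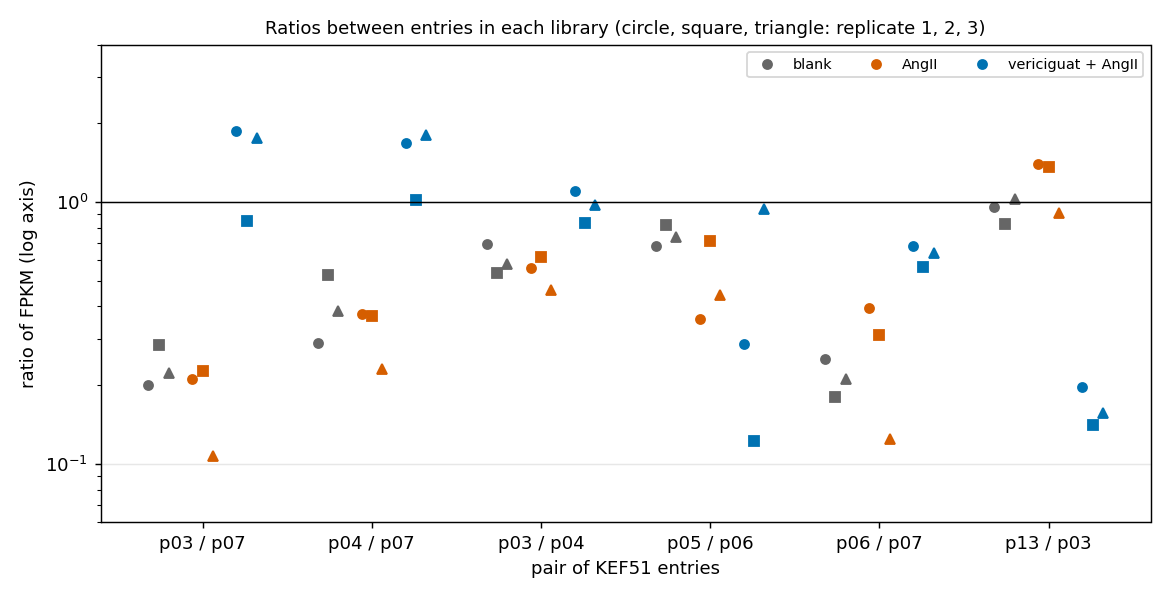
Ratio of FPKM between pairs of entries in each library, on a log axis, coloured by group, with symbols for the replicate. KEF51_p03 over KEF51_p07 lies at 0.107 to 0.284 in the control libraries and at 0.847 to 1.87 in the treated libraries, and KEF51_p13 over KEF51_p03 at 0.829 to 1.40 against 0.141 to 0.198.

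The order of the 6 entries by mean FPKM, a scale per transcript length, differed between groups. In the blank group it was KEF51_p07, KEF51_p04, KEF51_p03, KEF51_p13, KEF51_p06 and KEF51_p05, and of neighbours in that order only KEF51_p07 and KEF51_p04, and KEF51_p06 and KEF51_p05, had ranges that did not overlap. In the AngII group it was KEF51_p07, KEF51_p04, KEF51_p06, KEF51_p13, KEF51_p03 and KEF51_p05, and only KEF51_p07 was separated from its neighbour. With vericiguat + AngII the order was KEF51_p04, KEF51_p03, KEF51_p07, KEF51_p06, KEF51_p05 and KEF51_p13, and the ranges of all neighbours overlapped. Among the 13 KEF51 entries, KEF51_p03 ranked 9 in blank, 11 in AngII and 4 in the treated group, and KEF51_p04 ranked 8, 8 and 3. KEF51_p07 ranked 6, 5 and 5, and KEF51_p13 ranked 10, 10 and 12.

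The entries with the most similar pattern were found by Pearson's r of log2(FPKM + 1) over the 9 libraries, which fall into groups and share composition, so r is a description. KEF51_p07 was most like KEF51_p11 (0.971), KEF51_p02 (0.967) and KEF51_p08 (0.957). KEF51_p13 was most like KEF51_p09 (0.963), KEF51_p08 (0.898) and KEF51_p11 (0.882), and KEF51_p05 was most like KEF51_p13 (0.840), KEF51_p09 (0.744) and KEF51_p10 (0.698). For these 3 entries the nearest patterns were all KEF51 entries that were lower in the treated libraries. The treated libraries, which chose the 6 entries, enter r. Only 15 of 10908 tested entries were at or below 0.5 times the AngII level, among them 4 of the 6 and 6 of the other 7 KEF51 entries. Nothing is therefore read from these neighbours.

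The nearest patterns of KEF51_p03 were ADORA1-2 (0.816), LOC127486300 (0.811) and LOC100355826 (0.805), none of them a KEF51 entry. Nothing is read from this either, since 99.7% of all tested entries lay above the AngII libraries in the treated libraries, as KEF51_p03 did. ADORA1-2 had mean FPKM of 27043 in blank, 39982 in AngII and 92087 in the treated group. The mean sum of all entries without a KEF51 name was 34986.5, 52432.4 and 429625.6, so ADORA1-2 made up most of it in the control groups. LOC100355826 was near the floor, with mean FPKM of 0, 0.556 and 2.04. KEF51_p04 was most like KEF51_p12 (0.798), KEF51_p06 (0.548) and KEF51_p03 (0.497), and KEF51_p06 was most like LOC127482727 (0.745), KEF51_p13 (0.740) and KEF51_p12 (0.702). Among the 6 entries r ran from -0.59 for KEF51_p03 and KEF51_p07 to 0.85 for KEF51_p07 and KEF51_p13.

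The nuclear-encoded partners of these complexes stood at far lower FPKM and in the treated libraries far above the control libraries, where the 6 entries did not. Of 18 nuclear subunits of complex V, 16 were listed and tested, against 2 of 29 subunits and assembly factors of complex IV, 1 of 16 of complex III with cytochrome c, and 3 of 32 genes of mitochondrial transcription and RNA handling. All of these tested genes were higher in the treated libraries than in the AngII libraries, as were 99.5% of all tested entries by the same call. Nothing is read from this count, since it rests on the libraries that chose the 6 entries. With median-ratio scaling 0 of these 22 genes were called against AngII, and with quantile normalization 1 was. On the log2(FPKM + 1) scale the median difference from AngII was 4.74 for complex V, 4.65 for complex IV and 1.66 for transcription and RNA handling, beside 2.76 over all tested entries. The genes of transcription and RNA handling had a summed FPKM of 0.552 to 1.36 in AngII libraries. At such levels this scale understates fold changes, so the lists cannot be ranked by these medians.

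COX4I1, a nuclear-encoded subunit of complex IV, had FPKM of 8.48, 2.22 and 5.29 in blank libraries, 22.8, 43.7 and 31.6 after AngII, and 1107, 1017 and 886 in treated libraries. The AngII libraries were all above the blank libraries, with a log2 difference of 2.50 and an adjusted p of 0.0887 by limma. COX6A1, of the same complex, had mean FPKM of 1.09, 3.48 and 85.9 in the 3 groups, and UQCRQ, a small subunit of complex III, had 5.73, 35.8 and 921. ATP5F1E, the epsilon subunit of complex V, had mean FPKM of 3.55, 19.1 and 1141, ATP5IF1, the inhibitor of its reverse action, had 19.6, 30.0 and 1755, and ATP5ME had 19.5, 67.5 and 1746. Of the mitochondrial RNA and DNA factors, SSBP1, which binds single-stranded mitochondrial DNA, had 0.300, 0.677 and 18.4, and TWNK, the mitochondrial helicase, had 0.0983, 0.159 and 2.67.

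Between AngII and blank, 5 of the 16 tested nuclear genes of complex V rose and none fell, beside 1.44% of all tested entries that rose. Most entries behind that share lay below FPKM 1 in each blank and AngII library. No gene of the other 3 lists was called by limma. The 5 were ATP5MC1, ATP5MC2 and ATP5MC3, which each encode the c subunit of the rotor ring, ATP5MG and ATP5PO, named after their values were seen. ATP5MC1 had FPKM of 1.38, 1.98 and 1.25 in blank and 21.2, 13.1 and 33.9 in AngII libraries, a log2 difference of 3.14 ± 0.546 (SE) with an adjusted p of 0.0262 by limma. The difference between the nuclear genes and the 6 entries was not tested. These calls were lost in several alternatives: 0 of the 22 nuclear partners were called without the third blank library, in a fit of the blank and AngII libraries alone or with the replicate number as a block, and 1 was called as TPM or without the third AngII library. With a pseudocount of 0.1 or with median-ratio scaling 10 were called. Among the 3124 entries with a mean FPKM of at least 5, 313 rose, and 11 of the 19 nuclear partners tested there rose.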

How the data were processed

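RNA of neonatal rat CFs was sequenced in 9 libraries, grouped by their labels. From filtered reads placed on a reference genome, with predicted coding transcripts added to it, the authors deposited FPKM values in a single table. The submitters' processing notes name FastQC 0.11.9, Trimmomatic 0.39, HISAT2 2.2.1, featureCounts 2.0.1 and OryCun2.0, with no role or order. The table holds no counts, so depth is unknown and no counting interval is given. Fragments that match nuclear copies of mitochondrial genes, or the overlap of neighbouring genes, can be assigned either way. Of the names in the table, none of the 13 KEF51 names and none of 20346 LOC numbers matched the rat gene table, while 1607 of 2153 other names matched with case ignored.

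Tests used limma 3.58.1 in R 4.3.3 (lmFit, eBayes with trend) on log2(FPKM + 1) of the 10908 entries that reached FPKM 1 in 3 or more libraries, with all 9 libraries in a single fit. Calls needed a log2 difference of 1 or more in size and an adjusted p under 0.05. Fold changes on this scale understate those of low entries. Shares of the 13-entry sum and ratios between entries were compared with two-sided exact permutation tests. In the treated libraries, a ratio of group means of at most 0.5 was called lower and one of at least 2 higher, with no test. The code was tested on simulated data.

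The 6 entries and the gene lists were chosen with earlier results of these data known. Genes named are the 6 entries, the other KEF51 entries, the 3 entries most correlated with each, the 3 listed genes of highest mean FPKM in each nuclear list and the markers listed by symbol. Alternatives were other pseudocounts, filters, scalings (TPM, median-ratio, quantile), fits and each library left out. Endothelial (2 of 8 listed, summed FPKM up to 0.398 in blank, 0.421 in AngII and 86.2 in the treated libraries), smooth muscle and pericyte (3 of 8, up to 25.2, 6.85 and 731) and red blood cell markers (2 of 8, up to 398, 310 and 15127) were also summed, and none of 8 macrophage markers was listed.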

Additional observations from a re-analysis of the deposited data

How the results depend on the processing

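None of the 6 entries was called between AngII and blank in any alternative run. Of 114 values for the 6 entries over 19 alternatives, 105 kept their direction and side of the threshold and 9 changed direction. Median-ratio scaling turned the log2 difference to -0.49 for KEF51_p03, -0.35 for KEF51_p04, -0.45 for KEF51_p05, -0.054 for KEF51_p07 and -0.13 for KEF51_p13. Its size factors were 0.463, 0.0792 and 0.263 for the blank libraries, so it raised the second blank library most. The part of that library in these changes was not tested. Quantile normalization turned KEF51_p03 to -0.32, KEF51_p04 to -0.12 and KEF51_p13 to -0.015, and KEF51_p05 ran from -0.12 without the second AngII library to 0.78 without the third. The adjusted p of KEF51_p06 ranged from 0.0422 to 0.900 and that of KEF51_p07 from 0.0187 to 0.995, and at the lowest p, without a treated library, the log2 differences were 0.90 and 0.68.

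The count of entries at or below 0.5 times AngII was 4 as FPKM, 2 as TPM and 0 as a share of the 13 entries or of the 12 without KEF51_p10, an alternative chosen after seeing the data. Against blank it was 3 as FPKM, 0 as TPM, 6 with median-ratio scaling and 0 by either share. As a share of 13, KEF51_p05 and KEF51_p06 turned to log2 ratios of 0.45 and 0.73 against AngII, and of 12 to 0.18 and 0.45. Against blank, KEF51_p05, KEF51_p06, KEF51_p07 and KEF51_p13 turned to 0.73, 1.56, 0.038 and 0.12 by the 13-entry share and KEF51_p05 and KEF51_p06 to 0.26 and 1.10 by the 12-entry share. By the 12-entry share KEF51_p07 and KEF51_p13 stayed lower than blank, at -0.42 and -0.34. Leaving out each library in turn gave counts of 3 to 4 against AngII and 2 to 3 against blank. Over all tested entries, median-ratio scaling lowered the calls from 10869 to 454 against AngII and from 10845 to 1043 against blank. The called nuclear partners, with most alternatives for them added after seeing the data, were 5 between AngII and blank, 10 with median-ratio scaling, a pseudocount of 0.1 or eBayes without trend, 11 with a pseudocount of 0.01 or a mean FPKM of at least 5, 9 with quantile normalization, 1 as TPM, 0 with only the compared groups or the replicate block, and 0 to 12 with each library left out. Of 22 called in the treated libraries, median-ratio scaling left 0 against AngII and 11 against blank, and quantile normalization 1 and 10. The cause of these changes was not tested, beyond the scale itself.

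Replicate numbers did not pair the libraries: deviations of libraries with the same number correlated from -0.06 to 0.06. With the replicate number as a block, 0 of the 6 entries were called, 7 entries in all were called between AngII and blank against 169 without it, and 2 of the 6 had shares that differed the same way in all 3 numbered pairs, against 1 whose groups did not overlap. Leaving out each library in turn gave 1 to 4 entries whose groups did not overlap. Without read counts, depth limits cannot be stated.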
